A study of Mus musculus with 16 samples.

Results

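The 10 genes described here encode transcription factors that are known for their part in blood stem cells. They are Meis1, Hlf, Mecom, Gata2, Lmo2, Mycn, Erg, Runx1, Etv6 and Lyl1, chosen by name among the 30176 genes that the arrays measured with a probe set naming 1 gene. The choice was made with earlier results of these data known. Each of the 10 had 1 such probe set, so no choice between probe sets was needed, and transcripts from different start sites of a gene could not be told apart. RNA from sorted mouse bone marrow cells was measured on 16 arrays, in 4 groups of 4. The groups were KSL labelled KO (Camkk2 null), KSL labelled WT, KL labelled KO and KL labelled WT. Both were sorted as lineage-negative cells with c-Kit on their surface: KSL cells also carry Sca-1 and include the stem cells, while KL cells lack it and are mostly committed progenitors. The null mice carry a germ-line deletion of Camkk2, a calcium and calmodulin-dependent kinase kinase, in every tissue. No sample was treated, and the age and strain of the mice behind the arrays were not given in the sources used here. The series names 16 mice per genotype behind 4 biological replicates, and how the mice were divided among the replicates was not stated.

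These factors act as a network in the early blood system. Meis1 is a TALE homeodomain protein that binds DNA beside HOX proteins, Hlf is a PAR bZIP factor, and Mecom encodes a zinc finger protein of the PRDM family that long-term stem cells need. Erg and Etv6 belong to the ETS family, Gata2 binds GATA motifs, Runx1 pairs with Cbfb, and Lmo2 bridges the basic helix-loop-helix proteins Tal1 and Lyl1 to GATA factors without binding DNA itself. Mycn is a MYC family factor that acts with Myc in stem cell growth and survival. Erg, Fli1, Gata2, Lmo2, Lyl1, Runx1 and Tal1 are often described together as the heptad of factors that bind the same enhancers in blood progenitors.

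Before the results, 3 facts about the arrays bear on every direction below. Camkk2, the targeted gene, did not follow the genotype label: it read 7.14 to 7.93 on the log2 scale in KSL KO and 7.11 to 8.02 in KSL WT, and 7.08 to 7.83 in KL KO and 6.89 to 7.86 in KL WT (adjusted p = 0.714 in KSL and 0.923 in KL, limma). Which part of the gene the probe set reads is not known. In every group replicates 1 and 2 read higher for Camkk2 than replicates 3 and 4, and 174 of all genes, 0.577%, differed across the replicate numbers at an adjusted p under 0.05 (limma F test), none of them among the 10 factors. Under the WT label the cell types were close to each other: of 14 measured markers of KSL and stem cells none differed between KSL WT and KL WT at an adjusted p under 0.05 (0.109% of all genes did). Under the KO label 4 of the 14 were lower in KSL and none was higher. With a fold of at least 1.5 as well, 3 were lower, where 0.229% of all genes were. Ly6a, which encodes Sca-1, is not analysed here. Flt3, a receptor of KSL progenitors, averaged 6.32 in KSL KO and 9.31 in KSL WT, and 6.89 in KL KO and 9.49 in KL WT, so it divided by the genotype label and not by the cell type label. A difference of genotype, a difference of cell identity and an exchange of names between the groups cannot be told apart here. Every direction below therefore rests on the labels.

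All 10 factors were lower in KSL KO than in KSL WT, and for each of them the highest KO array stood below the lowest WT array. Such a complete separation with KO lower was seen in 11.8% of all genes. A gene was called when its Benjamini-Hochberg adjusted p over all genes was under 0.05 and its fold was at least 1.5. By this rule 5 of the 10 were called lower and none higher, where 3.70% of all genes were called lower and 1.31% higher. Since the 10 were chosen with earlier results of these data known, the shares set beside them are a description and not a test. Without the fold minimum all 10 passed, where 10.5% of all genes were lower. The median log2 difference of the 10 was -0.63, against 0.05 over all genes. In bulk RNA, fewer cells that express a factor and less of its RNA per cell cannot be told apart.

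**Figure D1:**
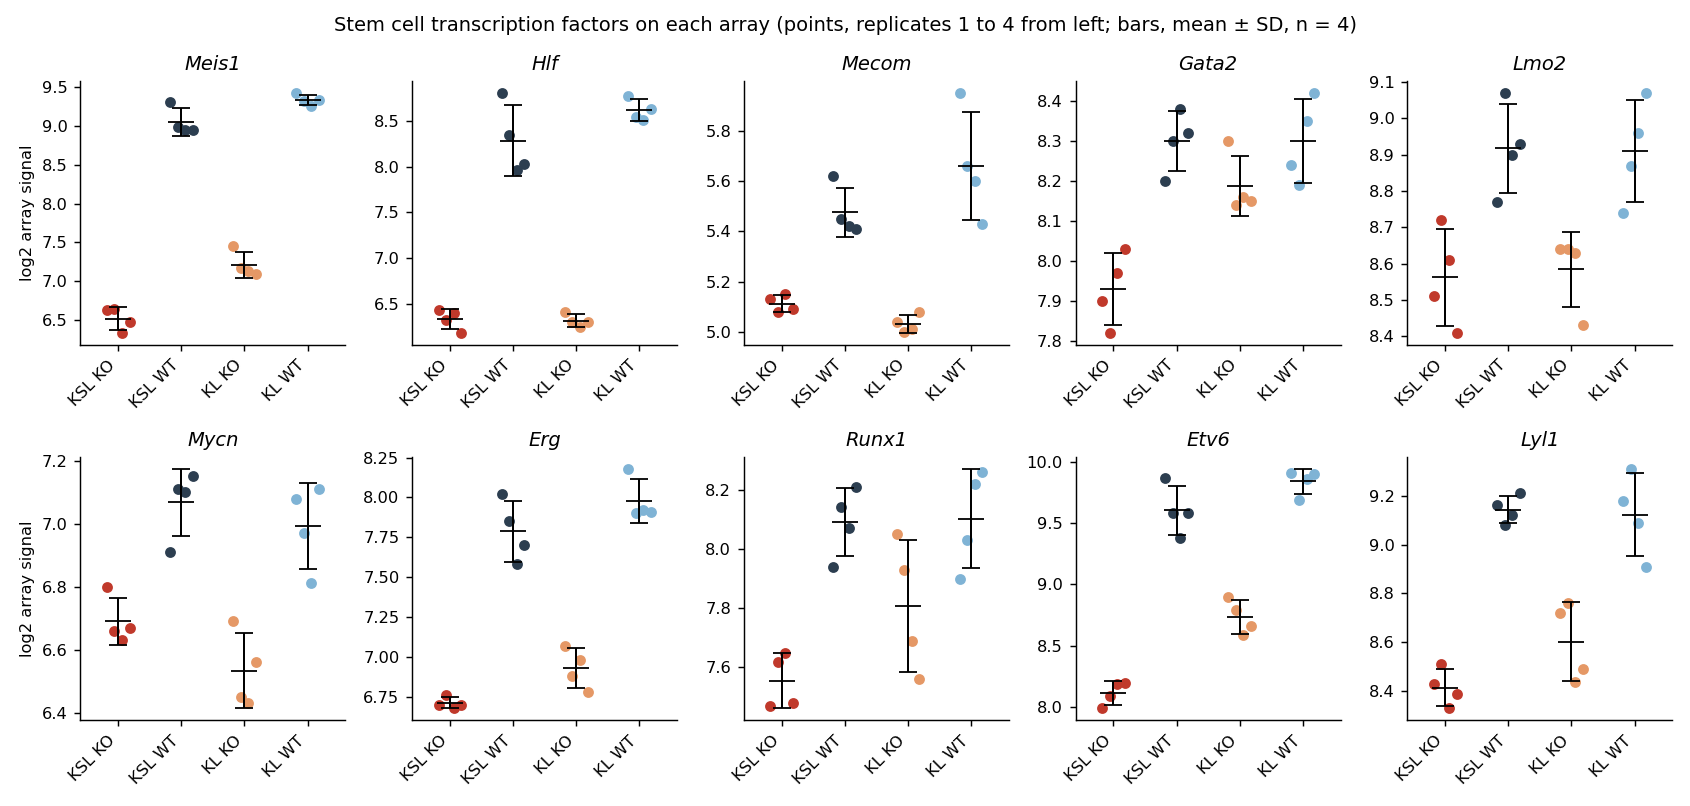
Log2 array signal of each factor (y axis, own scale per panel) on the 4 arrays of KSL KO, KSL WT, KL KO and KL WT (x axis), with replicates 1 to 4 as points from left and the mean ± SD as bars. In KSL no KO array reached the WT range for any factor, and in KL only Gata2 and Runx1 overlapped between the labels.

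Meis1, the homeodomain factor, had the largest difference of the 10 factors in KSL. It read 6.63, 6.64, 6.34 and 6.48 in replicates 1 to 4 of KSL KO, against 9.31, 8.98, 8.94 and 8.94 in KSL WT. The lowest WT array was thus far above the highest KO array, and replicate 1 of the WT arrays stood above its group. The log2 difference was -2.52 (SE 0.098, adjusted p = 6.17e-07, limma), a fold of 5.75, which ranked 29 from the lowest among the 30176 genes. In KL it read 7.46, 7.17, 7.13 and 7.09 under the KO label, against 9.42, 9.32, 9.25 and 9.33 under the WT label. The KL difference was -2.12 (SE 0.082, adjusted p = 9.72e-07). The group means, from low to high, were 6.52 in KSL KO, 7.21 in KL KO, 9.04 in KSL WT and 9.33 in KL WT. The KSL and KL arrays were separate under the KO label and overlapped under the WT label.

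Hlf, a factor that can help to reprogram committed blood cells into stem cells, was the other gene with a fold over 3 in each cell type. It read 6.43, 6.32, 6.40 and 6.18 in KSL KO, against 8.81, 8.35, 7.96 and 8.03 in KSL WT. The WT arrays were spread more widely than the KO arrays (SD 0.112 in KO and 0.39 in WT, n = 4 each) with replicates 1 and 2 on top. The difference was -1.96 (SE 0.17, adjusted p = 3.85e-05), a fold of 3.88. In KL it read 6.41, 6.30, 6.24 and 6.30 under the KO label, against 8.78, 8.55, 8.51 and 8.64 under the WT label, a difference of -2.31 (SE 0.067, adjusted p = 2.49e-07) and a fold of 4.96. The means of KSL KO (6.33) and KL KO (6.31) lay within their spread of each other. The study itself picked Meis1 and Hlf on the KSL arrays, so their direction in KSL is not independent evidence.

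The ETS factors Etv6 and Erg were called lower in both cell types. Etv6, a repressor that adult stem cells need, read 7.99, 8.09, 8.19 and 8.20 in KSL KO, against 9.87, 9.58, 9.38 and 9.58 in KSL WT. The gap between the groups was wider than the range inside either group, with a difference of -1.48 (SE 0.097, adjusted p = 8.08e-06) and a fold of 2.80. In KL, Etv6 read 8.90, 8.79, 8.59 and 8.66 under the KO label, against 9.91, 9.69, 9.86 and 9.90 under the WT label, a difference of -1.10 (SE 0.078, adjusted p = 2.20e-05). Erg, an activator of stem cell and megakaryocyte genes, read 6.70, 6.76, 6.68 and 6.70 in KSL KO, against 8.02, 7.85, 7.58 and 7.70 in KSL WT. The KO arrays were the tight group, and the difference was -1.08 (SE 0.087, adjusted p = 2.90e-05), a fold of 2.11. In KL, Erg read 7.07, 6.88, 6.98 and 6.78 under the KO label, against 8.18, 7.90, 7.92 and 7.91 under the WT label, a difference of -1.05 (SE 0.082, adjusted p = 3.77e-05).

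The sequences before the start sites of the 4 factors called lower in both cell types with a fold over 2 are shown because they are the regulatory DNA nearest to the genes that moved most. They are the 250 bases before the RefSeq start (GRCm38.p6), written 5′ to 3′ on the gene's own strand, and for Erg, which has 3 listed starts, the start whose window held matches. Capitals mark a match, on either strand, to a short motif of the families the factors belong to. AGATAA, or in its place TGATAA, stood for GATA factors. GGAAGT, or with a shift AGGAAG, stood for ETS factors, and CAGCTG, or in its place CAGATG, for the E-box of Tal1 and Lyl1. The RUNX motif was TGTGGT, while TALE factors were read from TGACAG.
Meis1, chr11:19018970-19019219, minus strand: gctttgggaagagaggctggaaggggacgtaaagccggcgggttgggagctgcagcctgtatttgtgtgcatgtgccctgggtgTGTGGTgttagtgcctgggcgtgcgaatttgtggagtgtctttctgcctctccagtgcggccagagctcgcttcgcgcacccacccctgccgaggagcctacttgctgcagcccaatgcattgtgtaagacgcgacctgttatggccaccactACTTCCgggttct
Hlf, chr11:90390918-90391167, minus strand: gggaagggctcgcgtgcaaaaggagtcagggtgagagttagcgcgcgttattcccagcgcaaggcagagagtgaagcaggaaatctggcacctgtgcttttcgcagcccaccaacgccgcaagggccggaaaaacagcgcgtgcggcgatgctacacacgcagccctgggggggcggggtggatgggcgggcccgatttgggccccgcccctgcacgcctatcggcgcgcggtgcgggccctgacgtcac
Etv6, chr6:134035450-134035699, plus strand: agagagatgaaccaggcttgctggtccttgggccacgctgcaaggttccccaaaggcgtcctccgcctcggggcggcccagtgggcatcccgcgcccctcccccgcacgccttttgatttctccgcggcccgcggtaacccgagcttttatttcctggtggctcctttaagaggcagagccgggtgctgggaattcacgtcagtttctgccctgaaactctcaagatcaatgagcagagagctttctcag
Erg, chr16:95459349-95459598, minus strand: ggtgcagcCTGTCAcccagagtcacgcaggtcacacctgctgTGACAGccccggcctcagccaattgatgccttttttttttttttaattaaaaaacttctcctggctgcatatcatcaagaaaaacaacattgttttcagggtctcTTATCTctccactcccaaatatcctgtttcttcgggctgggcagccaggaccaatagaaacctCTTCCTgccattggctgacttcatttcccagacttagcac
The Meis1 window held RUNX letters 166 bases and ETS letters 13 bases before the start. The Erg window held TALE letters 242 and 208 bases before the start, GATA letters at 103 and ETS letters at 40. In the Hlf and Etv6 windows none of these letters was found. The ETS motifs can overlap each other.

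Of the 10 factors, 9 matched the RefSeq promoter table, with 14 start sites in all and without Lmo2. The motifs were not frequent in them: 2 of the 14 windows held a GATA match, against 16.6% of all 32851 promoter windows of the same length. For ETS it was 3 of 14, against 38.8% of all windows, for the E-box 1 of 14, against 25.5%, for RUNX 1 of 14, against 14%, and for TALE 2 of 14, against 15.9%. Besides Meis1 and Erg, the matches lay before Mecom (an E-box and a GATA match at its first listed start, a TALE match at the second) and before the first listed start of Runx1 (an ETS match). A match describes the letters only and is not a bound site.

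Lyl1, the helix-loop-helix factor that shares tasks with Tal1 in stem cells, was called lower in KSL but not in KL. It read 8.43, 8.51, 8.33 and 8.39 in KSL KO, against 9.16, 9.08, 9.12 and 9.21 in KSL WT, a difference of -0.73 (SE 0.055, adjusted p = 2.04e-05) and a fold of 1.65. In KL it read 8.72, 8.76, 8.44 and 8.49 under the KO label, against 9.18, 9.31, 9.09 and 8.91 under the WT label. The KL groups were separate too, but the difference of -0.51 (SE 0.10, adjusted p = 0.00627) stayed under the fold minimum. Without KL WT replicate 4 the KL difference was -0.59 and was called. Mecom went the other way, with the call in KL and not in KSL. It read 5.13, 5.08, 5.15 and 5.09 in KSL KO, against 5.62, 5.45, 5.42 and 5.41 in KSL WT, a difference of -0.36 (SE 0.057, adjusted p = 0.00185). In KL it read 5.04, 5.0, 5.01 and 5.08 under the KO label, against 5.95, 5.66, 5.60 and 5.43 under the WT label, a difference of -0.63 (SE 0.095, adjusted p = 0.00159) and a fold of 1.55. The Mecom call in KL was lost without KL WT replicate 1, at -0.53. Under the KO label the Mecom values lay near the array medians (5.01 to 5.12 over all features). Under the WT label they lay above them, from 5.41 to 5.95. The difference between a low level and background was not measured.

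The other 4 factors fell by less than the fold minimum in KSL. Runx1, the partner of Cbfb that starts definitive blood formation, read 7.47, 7.62, 7.65 and 7.48 in KSL KO, against 7.94, 8.14, 8.07 and 8.21 in KSL WT, a difference of -0.53 (SE 0.071, adjusted p = 0.000615). In KL its groups overlapped, with 8.05, 7.93, 7.69 and 7.56 under the KO label, against 7.90, 8.03, 8.22 and 8.26 under the WT label, and the difference of -0.29 did not pass (adjusted p = 0.133). Gata2, which maintains stem and early progenitor cells, read 7.90, 7.82, 7.97 and 8.03 in KSL KO, against 8.20, 8.30, 8.38 and 8.32 in KSL WT, a difference of -0.37 (SE 0.061, adjusted p = 0.00222). In KL, Gata2 overlapped as well, from 8.14 to 8.30 under the KO label and from 8.19 to 8.42 under the WT label, and its difference was -0.11 (95% interval -0.25 to 0.03, adjusted p = 0.278). Mycn and Lmo2 were separate between the labels in both cell types. Mycn read 6.63 to 6.80 in KSL KO, against 6.91 to 7.15 in KSL WT (-0.38, adjusted p = 0.00335), and 6.43 to 6.69 in KL KO, against 6.81 to 7.11 in KL WT (-0.46, adjusted p = 0.0039). Lmo2 read 8.41 to 8.72 in KSL KO, against 8.77 to 9.07 in KSL WT (-0.36, adjusted p = 0.0142), and 8.43 to 8.64 in KL KO, against 8.74 to 9.07 in KL WT (-0.33, adjusted p = 0.0191). The gaps of Lmo2 were narrow. Its adjusted p in KSL was 0.0538 after quantile normalization was repeated and 0.0508 by the methods' t-test, and in KL it was 0.0702 by that test and 0.0504 without KL WT replicate 3.

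**Figure D2:**
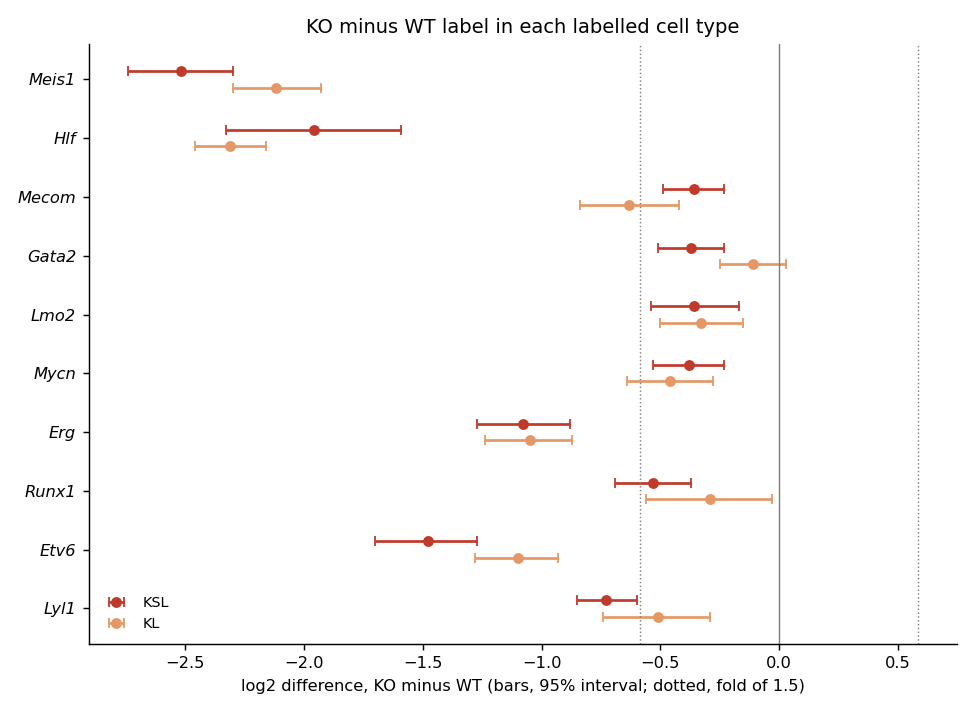
Log2 difference of each factor between the genotype labels, KO minus WT (x axis), in KSL and in KL, with 95% intervals from limma as bars and dotted lines at a fold of 1.5. All points lie below 0, and Meis1 and Hlf lie farthest from it, between -2.52 and -1.96.

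In KL, 5 of the 10 factors were called lower and none higher, where 2.72% of all genes were called lower and 1.28% higher. Without the fold minimum 8 passed, where 8.69% of all genes were lower. The KO arrays stood wholly below the WT arrays for 8 factors, where 10.2% of all genes did so. The median difference was -0.57, against 0.03 over all genes. Meis1, Hlf, Etv6 and Erg were the factors called in both KSL and KL. For no factor did the KO minus WT difference differ between KSL and KL at an adjusted p under 0.05, and the same held for all 30176 genes (0.00%, limma interaction term, 1867 genes, or 6.19%, at an unadjusted p under 0.05). The unadjusted p was 0.00818 for Meis1 (-0.41, the difference in KSL minus that in KL), 0.00949 for Gata2 (-0.26), 0.0109 for Etv6 (-0.38) and 0.0335 for Mecom (0.27). The calls of Lyl1 in KSL alone and of Mecom in KL alone are therefore not shown to differ between the cell types.

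Several of the factors are known to be higher in stem cells than in committed progenitors, and KSL was therefore set against KL under each label. Under the KO label, Meis1 and Etv6 were called lower in KSL than in KL, where 0.229% of all genes were called lower and 0.0365% higher. Meis1 differed by -0.69 (SE 0.096, adjusted p = 0.00239) and Etv6 by -0.62 (SE 0.093, adjusted p = 0.00465), each over 4 arrays a group. The KSL KO arrays stood wholly below the KL KO arrays for Meis1, Etv6, Erg and Gata2, where 4.42% of all genes did so. Erg was at -0.22 (adjusted p = 0.311) and Gata2 at -0.26 (adjusted p = 0.0607, and 0.0454 among genes above the median level only). The Etv6 call was lost without KSL KO replicate 1 (-0.57), without KL KO replicate 1 (-0.56) and after quantile normalization was repeated (-0.54). By the methods' t-test, which used only the KSL KO and KL KO arrays, neither gene was called (adjusted p = 0.138 for Meis1 and 0.117 for Etv6). Markers moved in the same comparison: 3 of 14 KSL and stem cell markers were called lower in KSL KO than in KL KO (4 without the fold minimum), 2 of 17 erythroid markers were called higher (7 without the fold minimum) and 1 of 12 mast cell and basophil markers was called lower. The share of all genes without the fold minimum is not given for this comparison, so the counts in brackets have no background beside them. The part of these markers in the Meis1 and Etv6 values was not tested.

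Under the WT label, none of the 10 factors was called between KSL and KL, where 0.0729% of all genes were called lower and 0.00994% higher. The differences ran from -0.33 for Hlf to 0.08 for Mycn, and all 10 overlapped between the cell types. By limma with no adjustment, Meis1, Hlf, Mecom, Erg and Etv6 had a p under 0.05, each with the lower mean in KSL, where 7.98% of all genes had such a p. For Gata2 the difference was 0.00 (95% interval -0.13 to 0.13) and for Lmo2 0.01 (-0.17 to 0.19). No factor was thus called higher in the cells labelled KSL than in those labelled KL, under either genotype label.

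**Figure D3:**
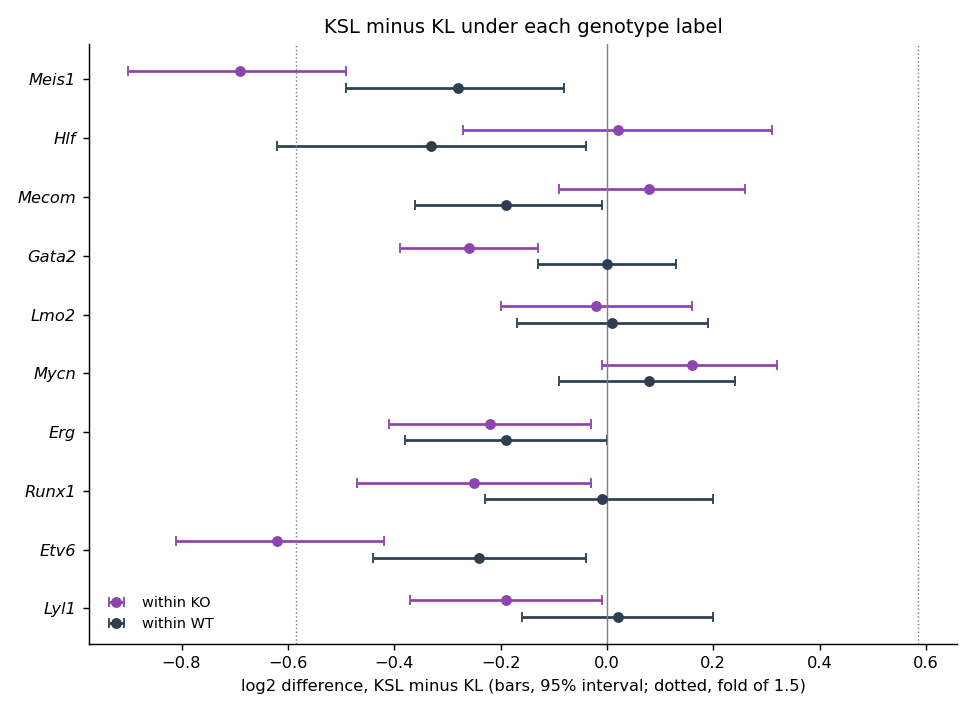
Log2 difference of each factor between the cell type labels, KSL minus KL (x axis), within the KO and the WT label, with 95% intervals from limma as bars and dotted lines at a fold of 1.5. Meis1 and Etv6 under the KO label are the only points beyond a dotted line, at -0.69 and -0.62.

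Most genes related to the factors by family or complex did not pass the adjusted p, and more were lower than higher. Of 71 such genes listed, 62 were measured. In KSL 5 of them were called lower and 1 higher, where 3.70% of all genes were called lower and 1.31% higher. Without the fold minimum 18 were lower and 7 higher, where 10.5% and 8.50% of all genes were. The median was -0.07, against 0.05 over all genes. In KL 4 were called lower and 1 higher, where 2.72% and 1.28% of all genes were. Without the fold minimum 16 were lower and 5 higher, where 8.69% and 7.13% of all genes were, with a median of -0.08. Lower genes were thus a larger share of this list than of all genes in both cell types. This list too was chosen with earlier results of these data known, so the comparison is a description and not a test. The calls lay in 3 groups: the ETS family, the RUNX group and the GATA group.

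Most of the related genes called lower were of the ETS family. Of 12 measured relatives of Erg and Etv6, 4 were called lower in KSL and the same 4 in KL, none higher, and 8 were lower in each without the fold minimum. Fli1, the closest relative of Erg, averaged 8.56 ± 0.21 in KSL KO and 9.81 ± 0.15 in KSL WT (SD, n = 4 each), a difference of -1.25 (SE 0.11, adjusted p = 4.44e-05), and was at -0.71 in KL (adjusted p = 5.30e-05). Elf1, an ETS activator of blood and endothelial genes, averaged 9.22 ± 0.26 in KSL KO and 10.51 ± 0.21 in KSL WT, a difference of -1.28 (adjusted p = 0.000175), and was at -1.03 in KL (adjusted p = 5.54e-06). Elk3 was at -1.08 (adjusted p = 8.03e-05) in KSL and -0.97 (adjusted p = 2.45e-05) in KL. Elf4, which promotes the cell cycle entry of stem cells, was at -0.86 (adjusted p = 0.000526) and -0.73 (adjusted p = 0.00136). Gabpa was the ETS gene that was higher in KL without the fold minimum, by 0.18 (adjusted p = 0.0242).

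For several factors, a relative with an overlapping role moved otherwise. Gata2 was lower in KSL while Gata1, the GATA factor of red cells and megakaryocytes, averaged 7.53 ± 0.059 in KSL KO and 6.63 ± 0.076 in KSL WT, a difference of 0.90 (SE 0.056, adjusted p = 5.56e-06). In KL, Gata1 was at 0.68 (adjusted p = 9.47e-05). Its cofactor Zfpm1 was at 0.50 (adjusted p = 0.0123) in KSL and 0.36 (adjusted p = 0.00571) in KL, under the fold minimum. Lyl1 was lower while its relative Tal1 was higher by 0.43 in KSL (SE 0.046, adjusted p = 0.000162), also under the fold minimum, with 0.17 in KL (adjusted p = 0.143). Mycn was lower while Myc was at 0.06 (adjusted p = 0.567) in KSL and 0.16 (adjusted p = 0.418) in KL. None of these pairs was tested against each other.

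Within the complexes, Cbfb, which strengthens the DNA binding of Runx1, averaged 7.84 ± 0.097 in KSL KO and 8.57 ± 0.071 in KSL WT, a difference of -0.72 (SE 0.062, adjusted p = 4.37e-05), and was at -0.19 in KL (adjusted p = 0.103). Ldb1, the scaffold that joins Lmo2 to its partners, was at 0.12 (adjusted p = 0.189) in KSL and 0.10 (adjusted p = 0.354) in KL. Of 12 measured genes of the Lmo2 complex, 2 were lower and 3 higher in KSL without the fold minimum, none past it: Tcf4 (-0.57, adjusted p = 0.00205) and Ssbp2 (-0.52, adjusted p = 0.000401) on one side, Tal1, Tcf3 and Ssbp3 on the other. Prdm16, the stem cell relative of Mecom, was at -0.21 (adjusted p = 0.0426) in KSL and -0.19 (adjusted p = 0.0281) in KL. Of 10 measured TALE and HOX genes, none was called, and Hoxa10 was at -0.36 (adjusted p = 0.00188) in KSL. Of the 7 heptad genes, 6 were lower in KSL without the fold minimum and Tal1 alone was higher, where 10.5% of all genes were lower. In KL 4 were lower and none higher, where 8.69% of all genes were lower. Erg, Gata2, Lmo2, Lyl1 and Runx1 are among the 10 factors, and Fli1 and Tal1 are among the relatives above. The heptad counts are therefore a recount and not separate evidence.

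**Figure D4:**
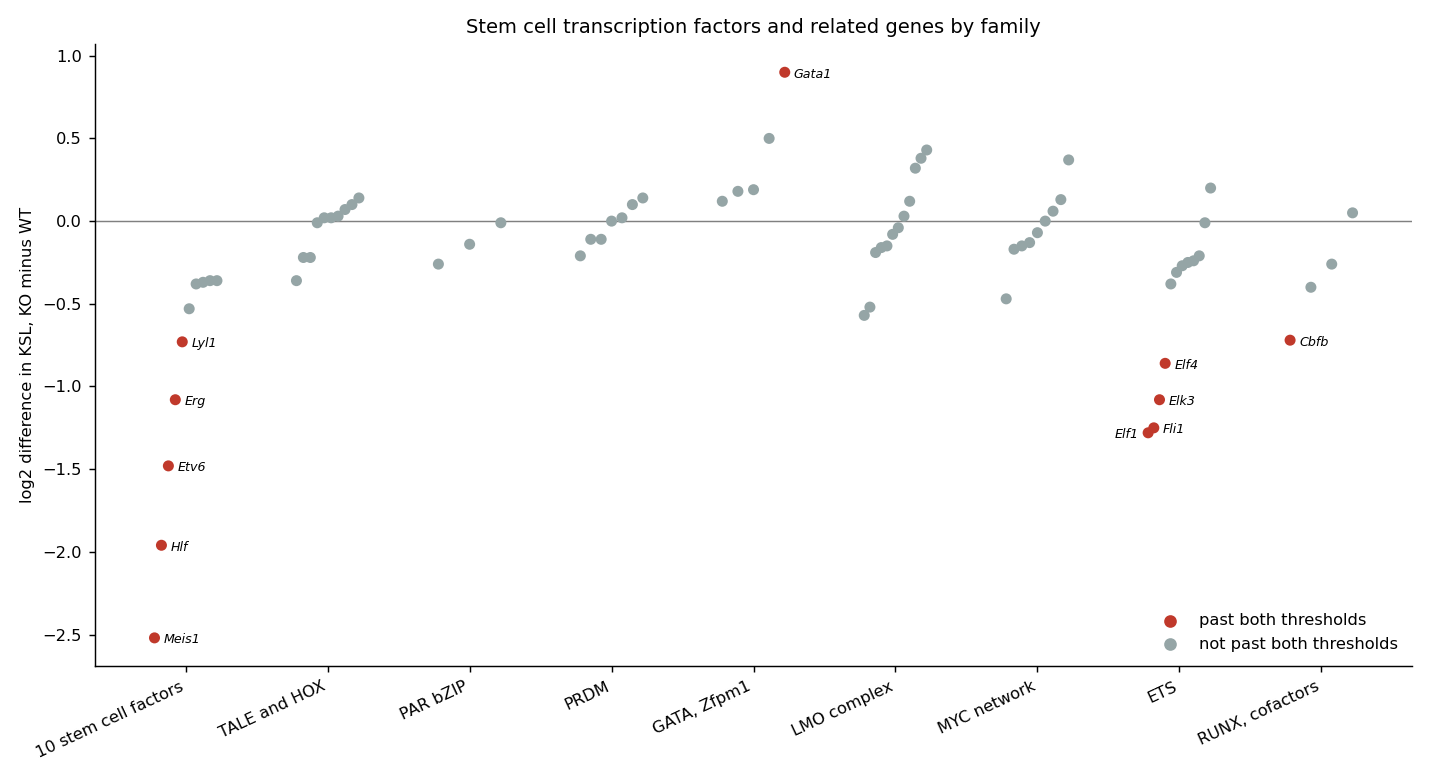
Log2 difference in KSL, KO minus WT (y axis), of the 10 factors and of each measured related gene, grouped by family or complex (x axis), in red where both thresholds were passed. The calls among relatives are Fli1, Elf1, Elk3, Elf4 and Cbfb below 0 and Gata1 above it.

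Markers of other cells moved with the label beside the factors. Of 17 measured erythroid markers, 15 were called higher in KSL KO and none lower, and the mean of the list was 9.13 to 9.37 on the KSL KO arrays and 7.46 to 7.62 on the KSL WT arrays. In KL 14 were higher, with means of 8.71 to 9.10 under the KO label and 7.18 to 7.43 under the WT label. Of 15 granulocyte and monocyte markers, 9 were higher and 2 lower in KSL (means 9.43 to 9.79 in KO and 8.69 to 8.93 in WT), and 8 were higher and 2 lower in KL. The means of the stem cell and lymphoid lists ran the same way as the factors. Of 14 KSL and stem cell markers, 7 were lower and none higher in KSL (means 6.95 to 7.03 in KO and 7.85 to 8.09 in WT). They were Kit, Cd34, Cd48, Esam, Angpt1, Adgrg1 and Flt3, and the same 7 were lower in KL. The paper defines long-term stem cells as lacking CD48, so the calls do not stand for such cells alone. In KSL, Procr passed the adjusted p alone, while Slamf1, Fgd5, Hoxb5, Ctnnal1, Tek and Vwf did not pass (-0.32 to 0.09). In KL, Vwf was higher by the adjusted p alone (0.17). Of 14 lymphoid markers, 4 were lower and none higher in each cell type, namely Dntt, Flt3, Il7r and Jchain. The KSL means of the list were 5.42 to 5.46 in KO and 6.23 to 6.38 in WT, while its median difference was -0.08. Since Gata2, Erg and Fli1 are also active in mast cells, megakaryocytes and endothelium, their markers were read too. In KSL, 1 of 12 mast cell and basophil markers was lower and 1 higher, and in KL 4 were higher and none lower. Megakaryocyte markers were lower for 2 and higher for 1 of 13 in KSL, and the higher one was Gata1, which also stands in the erythroid list. Endothelial markers were lower for 4 of 17, namely Emcn, Tie1, Esam and Pecam1. Esam also stands in the stem cell list, as does the lymphoid marker Flt3, so the lists are not separate evidence. The endothelial means, 5.72 to 5.75 in KSL KO and 5.92 to 6.04 in KSL WT, did not overlap, while the median difference of that list was -0.05. Plvap, another endothelial marker, was higher in KSL KO by the adjusted p alone (0.29). No list was at 0, since these log2 signals have no zero level. The part of these shifts in the values of the factors was not tested.

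**Figure D5:**
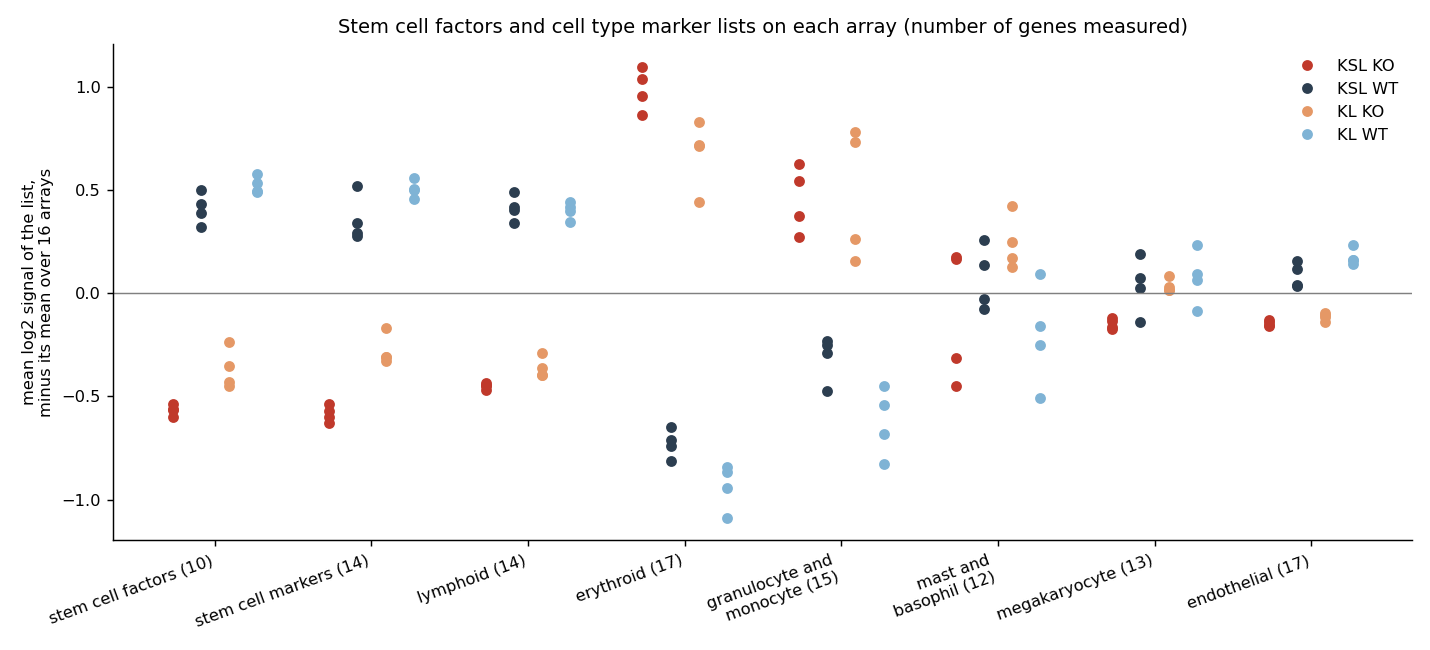
Mean log2 signal of the 10 factors and of 7 marker lists on each array, minus the mean of that list over the 16 arrays (y axis), with the number of genes measured beside each list (x axis). The factors and the stem cell, lymphoid and endothelial lists lie lower, and the erythroid and the granulocyte and monocyte lists higher, on all KO arrays than on all WT arrays, while the mast cell and megakaryocyte lists overlap.

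Read as the mean over the 10 factors, relative to its mean over 16 arrays, the KSL KO arrays lay between -0.600 and -0.538 and the KSL WT arrays between 0.323 and 0.501. The KL KO arrays lay between -0.451 and -0.235 and the KL WT arrays between 0.488 and 0.577. The range inside a group was widest in KL KO, where replicate 1 held the highest value. Replicate 1 held the highest array of its group for 7 of the 10 factors in KL KO, for 5 in KSL WT and for 5 in KL WT, but for 2 in KSL KO. The 5 factors were the same in KSL WT and KL WT, namely Meis1, Hlf, Mecom, Erg and Etv6. Across the replicate numbers, with the groups in the fit, the unadjusted p of the F test was 0.00191 for Meis1, 0.0303 for Hlf and 0.0327 for Erg, and none passed after adjustment over all genes (0.117, 0.394 and 0.407). This test was chosen after values were seen.

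The genes whose pattern over the 16 arrays was most like that of a factor are given as a description, since the arrays fall into groups by label and any gene that divides by label will correlate. For Meis1 they were Gcnt2, Adgrg1 and Cd34 (Pearson r 0.992, 0.991 and 0.991 over 16 arrays), and for Etv6 Adgrg1, Ndrg1 and Cd34 (0.995, 0.991 and 0.990). Erg was most like Fchsd2, Flt3 and Dpysl2 (0.994, 0.989 and 0.988), and Hlf most like Arhgap32, Gcnt2 and Zfp608 (0.990, 0.987 and 0.986). Adgrg1 and Cd34, surface proteins of early progenitors, thus stood among the 3 nearest genes of both Meis1 and Etv6. The factors with small differences had lower values, with Gata2 nearest to Snapc1 (0.927), Lmo2 to Bex1 (0.933), Runx1 to Wls (0.940), Mecom to B4galnt4 (0.953), Mycn to Nkx2-3 (0.958) and Lyl1 to Ctss (0.976). When each array was set against its group mean, other genes came first: Slc35a5 for Meis1 (0.896), Fcna for Hlf (0.911), Vcp for Erg (0.941), Lcp1 for Etv6 (0.943) and Ero1a for Runx1 (0.970). None of these was among the 3 nearest over the 16 arrays as deposited, whereas Sema7a stood in both lists for Mecom (0.950 over the arrays and 0.906 against group means).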

How the data were processed

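The authors deposited log2 values of 72688 array features on 16 arrays, credited in the submitters' processing notes to RMA (background correction, quantile normalization and probe summary) in Partek 6.6. They ran from 2.14 to 15.01, with array medians of 5.01 to 5.12, and no arrays were identical. The array annotation's genome build was not given in the sources used here. Of the features, 30638 named 1 gene, 2176 several and 39874 were not listed. Genes with several probe sets (354) used the brightest on average, leaving 30176. No dim genes were left out and no value column was unmapped (0). The number of arrays limits the precision.

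Tests used lmFit and eBayes of limma 3.58.1 under R 4.3.3, two-sided, for KO against WT on the 8 arrays of a cell type, and for KSL against KL and the interaction on 16 arrays. The script was tested on simulated data. P-values measure the spread between replicates, which may be partly technical. Promoters came from RefSeq. The factors and lists were chosen with earlier results of these data known. Named genes were the 10 factors, Camkk2, related genes past both thresholds in KSL, a fixed set of partners, the lists' called members and the 3 nearest by Pearson r. Other genes named as passing the adjusted p alone, the stem cell markers named as not passing, and Emcn, Tie1, Esam, Pecam1 and Flt3, were chosen after their values were seen. Same-numbered arrays deviated most alike in some pairs but not in every pair (r from -0.01 to 0.24). The numbers were not used as pairs in the main fits, and fits with the number as a block are given below.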

Additional observations from a re-analysis of the deposited data

Results flagged for a closer look

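Of 40 groups of 4 arrays, 10 factors in 4 groups, 5 held an array far from the other 3, where chance alone would give about 1 in 20 groups. Meis1 read 9.31 in KSL WT replicate 1, against 8.94 to 8.98 on the other arrays. Mecom read 5.62 on that same array, against 5.41 to 5.45. Gata2 read 8.30 in KL KO replicate 1, against 8.14 to 8.16. Erg read 8.18 in KL WT replicate 1, against 7.90 to 7.92. Lmo2 was the exception in direction, at 8.43 in KL KO replicate 4, against 8.63 to 8.64. In 4 of the 5 cases the array was a replicate 1 and lay high. Leaving out each array in turn kept the KO minus WT difference of all 10 factors below 0 in both cell types.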

How the results depend on the processing

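Of 835 alternative values for single factors, 803 kept their direction and their call by the adjusted p and the fold minimum together. Among these, the adjusted p alone crossed its threshold for Lmo2, in KSL (0.0538 after quantile normalization was repeated and 0.0508 by the methods' t-test) and in KL (0.0702 by that test and 0.0504 without KL WT replicate 3), and for Gata2 between KSL KO and KL KO (0.0454 among genes above the median level only). All 10 factors kept a negative KO minus WT difference in KSL and KL under every alternative run, and the 5 calls in KSL held in all of them. Without the fold minimum the factors called lower were 10 in KSL and 8 in KL. Leaving out 1 array gave 4 to 6 factors called lower in KL, through Mecom (-0.53 without KL WT replicate 1) and Lyl1 (-0.59 without KL WT replicate 4). Between KSL KO and KL KO, 1 factor was called after quantile normalization was repeated, 0 by the methods' t-test, and 1 to 2 when 1 array was left out. The t-test lost the calls through its adjusted p, at the same differences. With the replicate number as a block, 5 factors were called in KSL, 5 in KL and 2 between KSL KO and KL KO, and the block changed no call. Mecom had no value when only genes above the median level were kept.

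The 25 reversals were of differences that were never called. After repeated quantile normalization, Runx1 was at 0.0034 within WT, and Lmo2 at 0.07 within KO and 0.02 for the interaction. With arrays centred on their medians, Gata2 was at -0.0023 within WT. With 1 array left out, the KSL minus KL values within WT ran from -0.03 to 0.04 for Gata2, from -0.05 to 0.06 for Lmo2, from -0.08 to 0.04 for Runx1 and from -0.05 to 0.09 for Lyl1. Within KO they ran from -0.01 to 0.07 for Hlf and from -0.07 to 0.03 for Lmo2, and the interaction ran from -0.08 to 0.03 for Lmo2 and from -0.09 to 0.05 for Erg. The largest gap between the array medians of the genes tested was 0.101 on the log2 scale. With 4 arrays a group and no measured background, small differences of dim factors such as Mecom are limited by the number of arrays. The cause of these changes was not tested.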
